A study of Mus musculus with 8 samples.

Results

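Genes of the contractile apparatus, calcium handling and energy supply of skeletal muscle were followed across 8 arrays of mouse salivary gland tumours and normal salivary glands. The set holds 38 gene symbols, and its members are the probes whose gene name in the array files is one of those symbols. By that rule 37 of the 38 were found, on 65 of the 41174 probes of an array. Mybpc1, the slow form of myosin-binding protein C, was found only under an older clone name, so its values are given apart from the members. Of the 37 genes, 34 could be tested among the 16362 genes of the fit. The other 3 were Myl2, which was not above background on any array, and Actn2 and Ckmt2, whose spots on the day 3 array had been marked as faulty.

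The groups were untreated tumour (2 arrays), tumour after 3 days of rapamycin (1 array), tumour after 14 days of rapamycin (2 arrays), and untreated normal parotid (2 arrays) and submandibular gland (1 array). The series describes the tumours as induced by AKT, a kinase that acts upstream of mTOR, and rapamycin is an mTOR inhibitor. Strain, age, sex, rapamycin dose, the promoter that drives AKT, the gland in which a tumour arose and any pooling of animals are not given in the sources used here. Nothing in the labels ties the arrays to different animals, and the p-values therefore measure only the spread between these samples.

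Skeletal muscle fibres are long cells packed with sarcomeres, in which myosin filaments pull on actin filaments when calcium binds troponin. Fast and slow fibres build the same machine from different gene copies: each has its own myosin heavy and light chains, its own troponin C, I and T, and its own calcium pump. Salivary glands lie among muscles of the jaw and neck, and a gland's own contractile cells, the myoepithelial cells, use smooth-muscle genes in place of those of the sarcomere.

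Levels are log2 signals minus the 75th percentile of the array, so a level of 0 equals that percentile, and levels are compared between arrays for 1 probe and never between probes. The 75th percentile itself was 145 to 972 intensity units, with the lowest values on parotid replicate 2 and both day 14 arrays, and 43.2% to 58.4% of spots were well above background. No spot was saturated. Slide 1 carried day 14 replicate 1, both untreated tumours and parotid replicate 1, and slide 2 carried the other arrays. Summed signals are in multiples of the 75th percentile. That of 7 acinar genes was 3291 and 3492 at day 14, 3240 and 6898 in parotid gland and 708 in submandibular gland. In untreated tumour it was 75.6 and 125. That of 5 submandibular duct genes was 3424 and 3329 at day 14, 2941 in submandibular gland and 391 and 738 in parotid gland. In untreated tumour it was 0.87 and 1.06. Neither list was confined to its gland: Prol1, on the acinar list, had levels of 8.68 in submandibular gland and 1.4 and 4.34 in parotid gland. The duct gene Klk1 had 8.14 and 8.93 in parotid gland. Both day 14 arrays also carried Xist (levels -2.02 and -2.32) together with Ddx3y (1.79 and 1.49), whereas each other array had only the X-inactivation transcript or the Y-linked gene above background. Parotid replicate 1 carried Xist and parotid replicate 2 carried Ddx3y.

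Promoter sequences were available for 27 of the 37 members, from RefSeq on the GRCm38.p6 build. They are shown because most members move together on the arrays, and the examples pair 4 genes of fast or mixed fibres with 2 slow-fibre genes. Each is the 250 bases before the gene's start. Myh4 lies at chr11:67237562-67237811 (plus strand), Acta1 at chr8:123894776-123895025 (minus strand), Pvalb at chr15:78206401-78206650 (minus strand), Ckm at chr7:19410844-19411093 (plus strand), Myh7 at chr14:54994627-54994876 (minus strand) and Tnnc1 at chr14:31208062-31208311 (plus strand). Capitals mark the E-box CANNTG, the motif class bound by myogenic helix-loop-helix factors, the MEF2 motif, the CArG box bound by serum response factor, and the letters TATAAA.
Myh4: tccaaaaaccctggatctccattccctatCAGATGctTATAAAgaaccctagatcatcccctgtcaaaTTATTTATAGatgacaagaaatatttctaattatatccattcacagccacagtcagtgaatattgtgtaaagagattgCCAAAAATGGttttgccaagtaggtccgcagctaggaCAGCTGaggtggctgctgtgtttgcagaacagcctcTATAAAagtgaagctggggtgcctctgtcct
Acta1: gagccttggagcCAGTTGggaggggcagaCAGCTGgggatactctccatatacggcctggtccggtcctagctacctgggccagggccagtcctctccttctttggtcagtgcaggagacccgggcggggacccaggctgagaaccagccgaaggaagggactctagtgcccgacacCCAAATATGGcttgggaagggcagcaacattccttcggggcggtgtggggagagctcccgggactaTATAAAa
Pvalb: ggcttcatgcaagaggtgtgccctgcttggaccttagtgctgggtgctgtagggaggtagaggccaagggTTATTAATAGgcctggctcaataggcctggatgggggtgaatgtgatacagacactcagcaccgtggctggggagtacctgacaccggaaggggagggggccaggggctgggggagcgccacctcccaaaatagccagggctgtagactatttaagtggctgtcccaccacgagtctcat
Ckm: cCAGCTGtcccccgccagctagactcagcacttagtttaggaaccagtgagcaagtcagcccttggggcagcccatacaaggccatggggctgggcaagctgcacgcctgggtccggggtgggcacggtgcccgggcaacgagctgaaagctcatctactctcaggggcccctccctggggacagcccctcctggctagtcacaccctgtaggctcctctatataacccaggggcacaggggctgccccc
Myh7: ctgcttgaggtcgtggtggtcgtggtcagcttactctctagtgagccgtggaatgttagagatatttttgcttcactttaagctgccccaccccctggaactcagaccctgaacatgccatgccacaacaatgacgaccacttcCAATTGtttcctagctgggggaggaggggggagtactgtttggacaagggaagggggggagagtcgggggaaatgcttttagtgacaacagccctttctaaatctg
Tnnc1: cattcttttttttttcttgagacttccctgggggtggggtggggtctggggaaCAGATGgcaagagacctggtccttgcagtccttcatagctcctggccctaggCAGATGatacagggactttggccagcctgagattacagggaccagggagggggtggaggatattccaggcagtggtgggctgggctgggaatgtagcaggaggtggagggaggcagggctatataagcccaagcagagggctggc
Both strands were searched. The E-box CANNTG was present in 23 of the 27 member promoters and in 66% of 27025 promoters of the same length. Its form CAGCTG, which overlaps the former, was present in 12 members (12.8% of all promoters). The MEF2 motif was found in 5 members, namely Myh1, Myh4, Myh8, Pvalb and Ttn (3.01% of all). The CArG box was found in Acta1, Myh4 and Myl3 (1.4% of all), and TATAAA in 7 members (13.0% of all). The Myh7 and Tnnc1 windows above hold E-boxes and none of the other motifs. The same was true of the fast gene Tnnc2. Other slow genes held some, with CAGCTG in Tnni1 and TATAAA in Tnnt1. A match describes these letters only and does not show that a factor binds there.

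Muscle transcripts were high on 3 of the 8 arrays: both day 14 arrays and parotid replicate 2. By the reported probe of each of the 37 members, 33 and 32 were well above background on the day 14 arrays and 31 on parotid replicate 2. Parotid replicate 1 had 14 above background, the untreated tumours 16 each, day 3 14 and submandibular gland 6. Acta1, Tnni2, Eno3, Atp2a1, Tcap and Fbxo32 were above background on every array. In RNA from whole tissue, fewer muscle cells and less of a transcript per cell cannot be told apart.

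**Figure D1:**
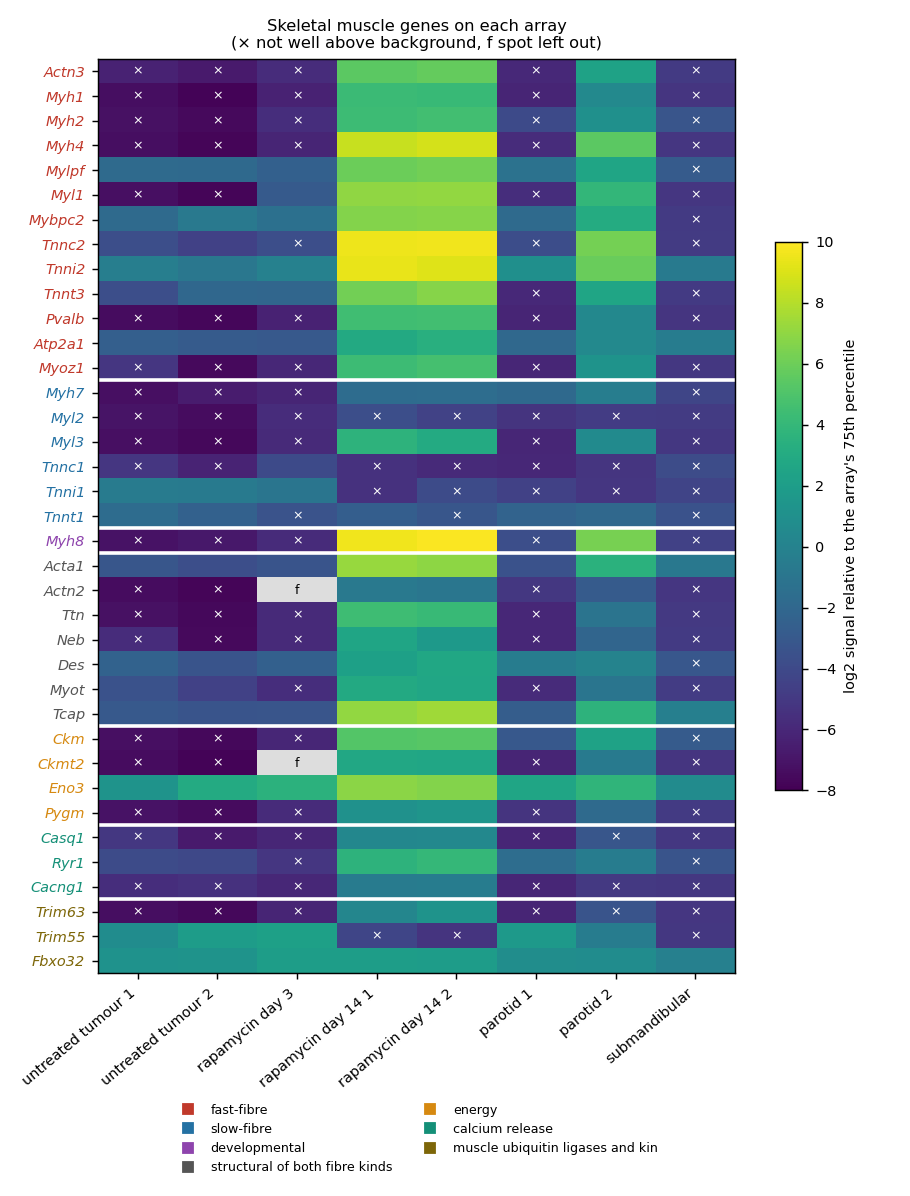
Heat map of the 37 members (rows, coloured by role) on the 8 arrays (columns). Colour gives the log2 signal relative to the array's 75th percentile, a cross marks a probe not well above background and f a spot left out; the 3 bright columns are both day 14 arrays and parotid replicate 2.

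Fast-fibre genes were high on the same 3 arrays. All 13 were above background on both day 14 arrays and on parotid replicate 2, against 6 on each untreated tumour and on day 3, 4 on parotid replicate 1 and 2 on submandibular gland. Myh4, the heavy chain of the fastest fibres, had levels of 8.46 and 8.82 at day 14 and 5.46 on parotid replicate 2. On the other arrays its levels were -7.36 and -7.76 (untreated tumours), -6.17 (day 3), -5.70 (parotid replicate 1) and -5.14 (submandibular gland), none of them above background. The day 14 arrays therefore did not overlap any other group for Myh4, and the parotid pair was split. Myh4 was at least 15870-fold higher at day 14 than in untreated tumour (limma adjusted p = 0.008), where the bound sets the day 14 mean against the dimmest signal that counted as above background on each tumour array or the probe's own signal, whichever was higher. Myh4 entered the test only because day 14 was above background, so this call and the lack of overlap with untreated tumour add no support. The reported probe lies at chr11:67076527-67076586 of the mm8 build, within the cluster of myosin heavy chain genes.

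The fast troponins are the calcium switch of the thin filament. Tnnc2, the calcium-binding subunit, had levels of 9.54 and 9.61 at day 14, 6.25 on parotid replicate 2, -3.71 and -4.49 in untreated tumour, -3.69 at day 3, -3.72 on parotid replicate 1 and -4.88 in submandibular gland. Tnni2, the inhibitory subunit, was measurable on every array: 9.38 and 9.15 at day 14, 5.92 on parotid replicate 2, 0.96 on parotid replicate 1, -0.32 and -0.84 in untreated tumour, -0.07 at day 3 and -0.58 in submandibular gland. For both genes the same 3 arrays stood above the rest. Against untreated tumour, Tnnc2 rose at day 14 by 13.67 ± 2.83 (log2, SE; limma adjusted p = 0.010) and Tnni2 by 9.85 ± 1.42 (adjusted p = 0.003). Tnnt3, which ties troponin to tropomyosin, rose by 9.30 ± 2.48 (adjusted p = 0.024), and its call was lost without either day 14 array or either untreated array (highest adjusted p = 0.118).

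By their reported probes, the other fast myosins behaved alike from array to array. Myh2, the heavy chain of fast oxidative fibres, had levels of 4.33 and 4.59 at day 14 and 1.07 on parotid replicate 2, and was below background elsewhere (-7.56 to -3.27). Myh1, the heavy chain of the intermediate fast fibres, had levels of 4.26 and 4.14 at day 14 and 0.47 on parotid replicate 2, and was below background elsewhere (-7.83 to -5.19). The other Myh1 probe was above background only on day 14 replicate 1 (-2.79). It had -3.26 on day 14 replicate 2 and -4.12 on parotid replicate 2. Myl1, the fast essential light chain, was above background at day 3 (-2.93) and not in untreated tumour, against 6.99 and 7.07 at day 14 and 3.88 on parotid replicate 2, while its other probe was not above background at day 3 (-5.63). Pvalb, a calcium buffer of fast-twitch fibres, had levels of 4.51 and 4.55 at day 14 and 0.39 on parotid replicate 2, with -7.66 to -5.19 and no signal above background on the other arrays.

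All 13 fast-fibre genes were called higher at day 14 than in untreated tumour, with a median difference of 11.80. Over all tested genes 24.8% were called higher and 23.1% lower, with a median difference of 0.05. Among the 13, Actn3, Myh1, Myh2, Myh4, Pvalb and Myoz1 entered the test only because day 14 was above background, so their calls add no support. Atp2a1, the calcium pump of fast fibres, had the smallest fitted fast-fibre difference: its levels were 2.91 and 3.34 at day 14, -2.58 and -2.80 in untreated tumour, -2.94 at day 3, -1.89 and 0.50 in parotid gland and -0.46 in submandibular gland, a rise of 5.81 ± 0.73 from untreated tumour to day 14 (limma adjusted p = 0.002). Its probes disagreed: the other probe was above background only at day 14 (4.76 and 5.09) and on parotid replicate 2 (1.41).

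Slow-fibre genes did not move as a block. Myh7, the slow and cardiac heavy chain, had levels of -1.65 and -1.55 at day 14, -1.82 and -0.39 in parotid gland, and was not above background in untreated tumour (-7.29 and -6.60), at day 3 (-6.16) or in submandibular gland (-4.23). It was thus the member for which day 14 and parotid gland were closest among those above background on all 4 of these arrays, and the groups overlapped. Day 14 exceeded untreated tumour by at least 13.2-fold (limma adjusted p = 0.001), a call lost with normexp background correction (adjusted p = 0.109). Day 14 minus parotid was -0.49 ± 0.59 (adjusted p = 0.634). Its neighbour Myh6, the atrial heavy chain, was not above background on any array.

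Tnni1, the slow troponin I, ran opposite to most of the set. Its levels were -0.53 and -0.60 in untreated tumour and -1.01 at day 3, and it was not above background at day 14 (-5.42 and -3.86), in parotid gland (-4.52 and -5.18) or in submandibular gland (-4.28). The 3 arrays with signal were those of untreated and 3-day tumours, with no overlap with the others. Tnni1 was at least 7.11-fold lower at day 14 than in untreated tumour (limma adjusted p = 0.003) and at least 7.68-fold higher in untreated tumour than in parotid gland (adjusted p = 0.003).

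The remaining slow genes were dim or nearly flat. Tnnc1, the slow and cardiac troponin C, was above background only at day 3 (-3.92). Myl2, the slow regulatory light chain, was above background nowhere, with levels of -3.67 and -4.48 at day 14. Tnnt1, the slow troponin T, varied between -3.46 and -1.60 over the 8 arrays, and its difference of -0.91 ± 0.45 between day 14 and untreated tumour did not pass the test (limma adjusted p = 0.140). Myl3, the slow and ventricular essential light chain, was the exception: it had levels of 3.62 and 2.99 at day 14 and 0.62 on parotid replicate 2 and was below background elsewhere, but its other probe ran only from -4.53 to -1.53 over the 8 arrays. Mybpc1, found under its clone name, was above background in untreated tumour (-1.82 and -3.24) and at day 14 (-1.95 and -1.79) and not on the other 4 arrays.

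Of the 5 slow-fibre genes tested, 2 were called higher (Myh7 and Myl3) and 1 lower (Tnni1) at day 14 than in untreated tumour. Their median difference was 0.03. Over all genes 24.8% were called higher and 23.1% lower, and 5 genes are too few to set apart from those shares. Myl3 entered the test through day 14 alone, so its call adds no support.

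**Figure D2:**
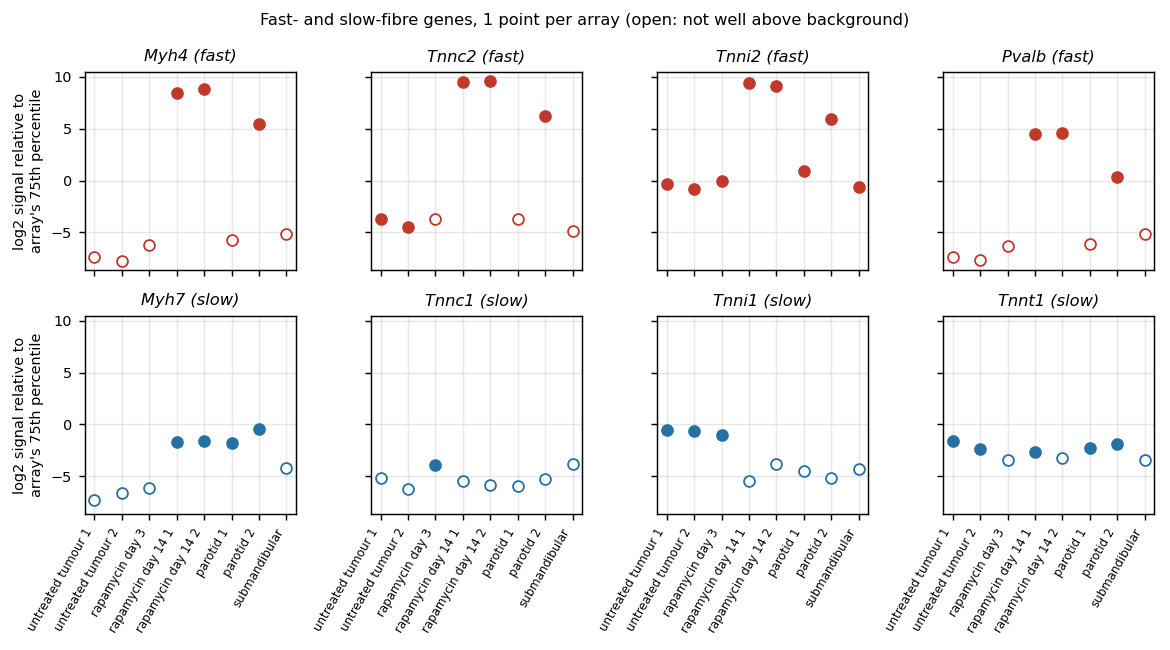
Levels of 4 fast-fibre genes (top, red) and 4 slow-fibre genes (bottom, blue), 1 point per array, on a log2 scale relative to the array's 75th percentile; open points were not well above background. The fast genes are high on both day 14 arrays and parotid replicate 2, while Tnni1 is above background only in untreated and day 3 tumours.

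Myh8, the perinatal heavy chain, was high on its reported probe: its levels were 9.59 and 9.89 at day 14, 6.30 on parotid replicate 2 and no signal above background elsewhere. Its other 3 probes, at other positions of the gene, were not above background on any array. Myh8 lies in the cluster with Myh1, Myh2 and Myh4, whose sequences are closely alike, so its level is uncertain. Cross-hybridisation of that probe was not tested. Among 14 other genes of developing or regenerating muscle, the embryonic heavy chain Myh3, the satellite cell factor Pax7 and the myoblast factors Myf5, Myod1 and Myog were not above background on any array. On each day 14 array 4 of the 14 were above background. These were Myl4 (-2.2 and -2.41), Chrna1 (-2.57 and -2.39), Cdh15 (-2.15 and -2.30) and Ncam1 (-0.81 and -1.01).

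Structural genes shared by both fibre kinds followed the fast genes. Acta1, skeletal alpha-actin, had levels of 7.20 and 6.95 at day 14, 3.51 on parotid replicate 2, -3.46 on parotid replicate 1, -3.17 and -3.67 in untreated tumour, -3.35 at day 3 and -0.81 in submandibular gland. Tcap, which caps titin at the Z-disc, showed the same order, with 7.08 and 7.42 at day 14, 3.63 on parotid replicate 2, -0.20 in submandibular gland and -3.35 to -2.66 on the other 4 arrays. For both genes submandibular gland lay between the arrays with and without muscle signal, although the reported probes of 31 of the 37 members were not above background there. Acta1 rose at day 14 over untreated tumour by 10.49 ± 1.99 (limma adjusted p = 0.007) and Tcap by 10.41 ± 1.79 (adjusted p = 0.005).

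Ttn, the giant protein that spans the sarcomere from Z-disc to M-line, had levels of 4.42 and 4.15 at day 14 and -1.05 on parotid replicate 2, and was below background on the other arrays. Ttn and Neb, the thin-filament ruler, have 9 and 4 probes, and these did not all report the same: of the 9 for Ttn, 8 were above background at day 14 and 3 on parotid replicate 2. Des, the intermediate filament that links sarcomeres and is also made by smooth muscle, was measurable in both parotid samples: 2.26 and 2.72 at day 14, -0.42 and 0.02 in parotid gland, -2.35 and -3.35 in untreated tumour, -2.47 at day 3 and -3.11 in submandibular gland, where it was not above background. Its parotid arrays differed by 0.45, against 6.97 for Acta1 and 6.28 for Tcap. Des rose from untreated tumour to day 14 by 5.34 ± 0.43 (limma adjusted p = 0.0005).

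The 3 energy genes tested all rose at day 14 over untreated tumour. Ckm, the muscle creatine kinase that regenerates ATP, had levels of 5.15 and 5.33 at day 14, 2.41 and -3.04 in parotid replicates 2 and 1, and was not above background in untreated tumour (-7.29 and -7.63), at day 3 (-6.06) or in submandibular gland (-2.81). Day 14 exceeded untreated tumour by at least 1504-fold (limma adjusted p = 0.002). Eno3, the muscle enolase of glycolysis, was above background on all arrays, with 6.85 and 6.64 at day 14, 2.56 and 3.80 in parotid gland, 1.27 and 2.97 in untreated tumour, 3.54 at day 3 and 0.69 in submandibular gland. Its rise of 4.62 ± 0.62 to day 14 (adjusted p = 0.002) was the smallest of the 3 energy genes tested. Pygm, which breaks down muscle glycogen, had levels of 1.10 and 1.37 at day 14 and -1.81 on parotid replicate 2 and was below background elsewhere. Ckmt2, the mitochondrial creatine kinase of striated muscle, was left out of the test and had levels of 2.82 and 2.68 at day 14, -0.62 on parotid replicate 2 and -7.80 to -5.22, below background, on the other 4 arrays with a usable spot.

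The calcium release genes were less evident on parotid replicate 2. Ryr1, the calcium channel of the sarcoplasmic reticulum, had levels of 3.63 and 3.98 at day 14, -1.57 and -0.45 in parotid gland, -3.88 and -4.07 in untreated tumour, and -5.12 and -3.30, both below background, at day 3 and in submandibular gland. The groups of 2 did not overlap, and Ryr1 had the lowest adjusted p of the set at day 14 against untreated tumour (7.78 ± 0.44, limma adjusted p = 0.0002). Of its 3 probes, 1 differed from the others: it ran from -6.26 to -0.97 over the arrays and was highest in submandibular gland. Casq1, the calcium store protein of fast fibres, and Cacng1, a subunit of the voltage sensor, were above background only at day 14, at 0.35 and 0.38 and at -0.54 and -0.43.

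The muscle ubiquitin ligase genes did not share a pattern. Trim63, also called MuRF1, was above background only at day 14 (0.27 and 1.24), at least 67.1-fold higher than in untreated tumour (limma adjusted p = 0.001). Trim63 entered the test through day 14 alone, so its call adds no support. Its other probe was not above background on any array (-4.72 and -4.97 at day 14). Fbxo32, also called atrogin-1, was above background everywhere and within a narrow range: 1.99 and 1.93 at day 14, 1.16 and 1.23 in untreated tumour, 2.05 at day 3, 0.82 and 0.75 in parotid gland and -0.19 in submandibular gland. It rose from untreated tumour to day 14 by 0.77 ± 0.20 (adjusted p = 0.021), a call that was lost when any 1 of the 4 arrays was left out (highest adjusted p = 0.136) and with normexp background correction (adjusted p = 0.068). Trim55, a titin-binding relative of Trim63, fell: its levels were 0.74 and 1.98 in untreated tumour, 2.21 at day 3, 1.71 and -0.44 in parotid gland, and it was not above background at day 14 (-4.20 and -5.27) or in submandibular gland (-5.07). Day 14 was at least 27.0-fold lower than untreated tumour (adjusted p = 0.002) and at least 16.4-fold lower than parotid gland (adjusted p = 0.017). Trim55 was thus not above background on the day 14 arrays, which had the highest muscle signal.

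Counted over the set, 30 of the 34 tested members were called higher and 2 (Tnni1 and Trim55) lower at day 14 than in untreated tumour. Of the 34, 14 passed the filter on dim probes through day 14 alone and had to differ. Among the other 20, 16 were called higher and 2 lower, with a median difference of 7.29, beside the 24.8% and 23.1% of all genes given above. With 1 of the 4 arrays left out, the median over all 34 members ran from 8.42 to 8.70. Besides Fbxo32 and Tnnt3, the calls of Acta1, Actn3, Myh4, Myl1, Myot, Myoz1 and Tnnc2 were lost without either day 14 array and that of Myl3 without day 14 replicate 1 (limma adjusted p of at most 0.074, for Myot), and Myot was also lost without untreated tumour replicate 2. Several other cell types moved with muscle in this comparison. Called higher at day 14 were 8 of 8 tested adipocyte genes, 8 of 10 smooth muscle and myoepithelial genes and 7 of 7 acinar genes. So were 5 of 5 submandibular duct genes, 4 of 5 lymphocyte genes, 3 of 5 nerve genes and 3 of 5 endothelial genes. Fibroblast and tendon genes did not, with 2 of 7 higher and 2 lower, near the 24.8% and 23.1% of all genes. The summed adipocyte signal was 344 and 309 at day 14, 24.1 and 13.6 in untreated tumour, 59.4 and 256 in parotid gland, 103 at day 3 and 36.2 in submandibular gland, in multiples of the 75th percentile. Lep was the adipocyte gene below background on every array. The summed smooth muscle and myoepithelial signal was 236 and 241 at day 14, at most 26.6 in untreated tumour, 38.9 and 118 in parotid gland, 41.2 at day 3 and 298 in submandibular gland, with all 10 genes above background on every array. The part that these cell types have in the muscle result was not tested. Of 8 heart muscle genes 3 were tested (Myl7, Tnni3 and Tnnt2), and the summed signal of these 3 was 0.73 to 2.44 over the 8 arrays. Tnni3 was above background on every array, with levels from -1.16 to 1.12, and Tnnt2 on all but the parotid arrays. Myh6, Nppa and Ryr2 were not above background on any array.

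**Figure D3:**
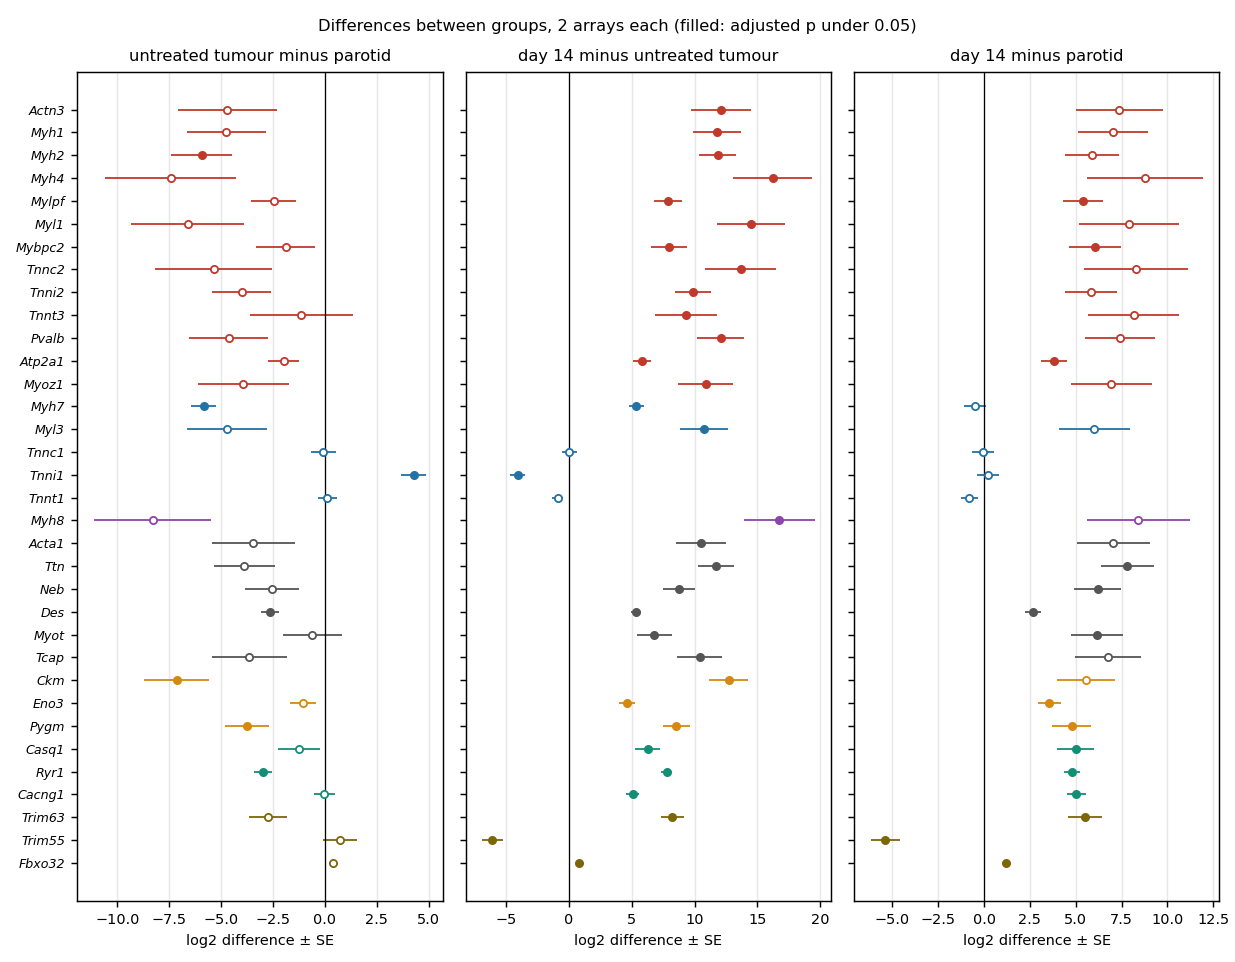
Log2 differences with their standard errors for the 34 tested members in untreated tumour against parotid, day 14 against untreated tumour and day 14 against parotid, each 2 arrays against 2; filled points passed an adjusted p of 0.05, and differences from probes below background are fitted values. At day 14, 30 members were called higher than in untreated tumour and 14 higher than in parotid gland.

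At day 3 of rapamycin no member was called in either direction against untreated tumour, and 0.00611% of all tested genes were (1 of 16362; limma). Without adjustment, 2 of the 34 members had a p under 0.05, and the lowest adjusted p among members was 0.394. The median member difference was 0.76, with 24 of 34 members positive. Most of these probes were below background on the tumour and day 3 arrays, where their levels have no order. Day 14 against the single day 3 array gave 27 members higher and 2 lower, with 11.6% and 11.0% of all genes. Within slide 2, which carried both, day 14 replicate 2 minus day 3 had a median of 8.71 and was positive for 30 of 34 members.

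The normal parotid arrays differed from each other more for these genes than for most. Among the 14 tested members above background on both, replicate 2 minus replicate 1 ranged from -2.15 (Trim55) to 6.97 (Acta1), with a median of 1.92, and 7 were at least 4-fold higher on replicate 2. The other 20 of the 34 were not above background on replicate 1, where their levels have no order. With these included the median was 4.81. In all, at least 4-fold higher levels on replicate 2 were seen for 24 of 34 members and for 2.99% of all genes, and 18 members were among the 100 largest of the 16362 differences. The untreated tumour pair had a median difference of -0.37 and the day 14 pair 0.09, with no member at least 4-fold higher in replicate 2 of either pair. The parotid arrays lay on different slides, and so did the day 14 arrays.

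Other transcripts also separated the parotid pair. The 10 non-member genes with the largest replicate 2 minus replicate 1 difference were Sftpd (9.69), Slc27a2, Fgg, Serpinb11, Slco1a6, Mug1, Ltf, Aqp8, Obp1b and Hp (8.44), none of them a muscle gene. Of these, only Serpinb11, Slco1a6 and Hp had day 14 levels above 0. Lymphocyte genes ran the other way, with a summed signal of 50.4 on parotid replicate 1 and 0.67 on replicate 2. What sets these arrays apart was not tested.

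With the parotid pair split in this way, few members passed the test in untreated tumour against parotid. Lower in tumour were Myh2, Myh7, Ckm, Pygm, Ryr1 and Des, and Tnni1 was higher, so 6 members were lower and 1 higher of 34. Myh2 and Pygm entered the test through day 14 alone. Among the tumour and parotid arrays they were above background only on parotid replicate 2, so their calls rest on that array. Over all genes 20.8% were called lower and 18.3% higher, so the members' shares were not above the background. The median member difference was -3.21, against -0.01 for all genes. Without parotid replicate 1 it was -5.45 with 28 members and 52.7% of all genes called. Without parotid replicate 2 it was -0.60 with 16 members and 48.6% of all genes called. On slide 1, which carried both tumours and parotid replicate 1, 12 members and 46.2% of all genes were called. Myh7, Tnni1, Ryr1 and Des passed the test in each of these 3 settings, and Myh7 did not with normexp background correction (adjusted p = 0.087). The calls of Myh2, Ckm and Pygm were lost without either untreated tumour array (adjusted p up to 0.129, for Pygm).

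Day 14 against parotid gave 14 members higher and 1 (Trim55) lower. Over all genes 6.31% were called higher and 5.08% lower. Among the 20 members that did not pass through day 14 alone, 8 were higher and 1 lower, with a median of 5.11. By role, 3 of 13 fast-fibre genes were called higher (Mylpf, Mybpc2 and Atp2a1), 0 of 5 slow-fibre genes, 4 of 6 structural genes (Ttn, Neb, Des and Myot), 2 of 3 energy genes (Eno3 and Pygm) and all 3 calcium release genes. Of these, Ttn, Neb, Pygm, Casq1 and Cacng1 entered the test through day 14 alone, so their calls add no support. At an unadjusted p under 0.05, 30 of 34 members and 4961 of all genes passed. Both day 14 arrays lay above both parotid arrays for 29 of 34 members and for 26.7% of all genes.

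The calls of this comparison depended on single arrays. Without parotid replicate 1 or without parotid replicate 2, 30 members were called, with medians of 3.34 and 8.29, and the shares of all genes called were 36.0% and 25.2%. Without either day 14 array none of the members and no gene at all was called. Within slide 1 the median of day 14 minus parotid was 8.35 (positive for 31 of 34 members), and within slide 2 it was 3.40 (positive for 30 of 34). With slide as a block, 19 members and 9.25% of all genes were called.

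Set against parotid replicate 2 alone, day 14 was higher by similar amounts for most genes. Among the 27 tested members above background on all 3 arrays, the mean of the day 14 arrays minus parotid replicate 2 had a median of 3.35, or 10.2-fold. The 13 fast-fibre genes spanned only 2.62 (Atp2a1) to 4.14 (Pvalb), and the 3 energy genes 2.84 (Ckm) to 3.05 (Pygm). Ttn stood highest at 5.34, followed by Ryr1 at 4.25. Fbxo32 differed by 1.21, and Myh7 was the only 1 of the 27 that was lower at day 14, at -1.21. Parotid replicate 2 is a single array, so these differences have no test.

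**Figure D4:**
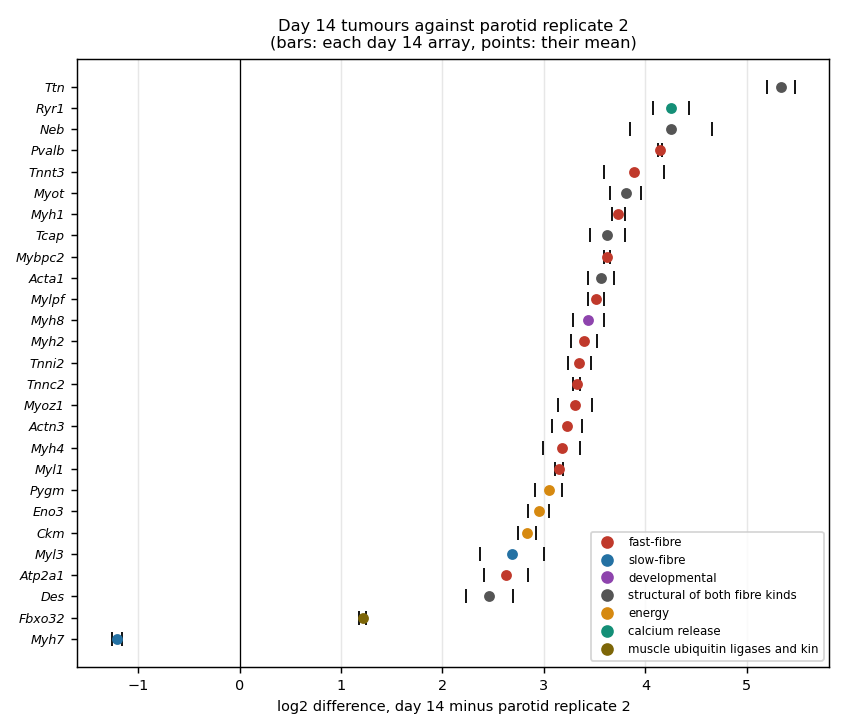
Log2 difference between day 14 tumours and parotid replicate 2 for the 27 tested members above background on all 3 arrays; bars are each day 14 array, points their mean, coloured by role. Most fast-fibre and energy genes lie near 3, Ttn at 5.34 and Myh7 at -1.21.

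Submandibular gland against parotid gave 1 member lower (Trim55, at least 11.6-fold, limma adjusted p = 0.047) and none higher, with 1.01% and 1.36% of all genes. Against parotid replicate 2 on the same slide, submandibular levels were lower by 4-fold or more for 26 of 34 members and for 4.63% of all genes. The median was -4.14. Against parotid replicate 1, on the other slide, the median was 0.62. Only 6 of the 37 members were above background in submandibular gland and 14 on parotid replicate 1, by the reported probe. Most of these differences and both medians thus rest on levels that have no order.

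Further muscle genes outside the set were read in the same way, from lists chosen with earlier results known. Among other fast-fibre genes, 7 of 8 tested were called higher at day 14 than in untreated tumour, for example Pgam2, the muscle phosphoglycerate mutase, with levels of 4.90 and 5.13 at day 14, 1.30 on parotid replicate 2 and below background on the other 5 arrays. Calml3 was the gene of that list called lower (-3.19 ± 0.30, limma adjusted p = 0.0007). Among other slow or oxidative-fibre genes, 8 of 10 were higher and 1 lower, including Cox6a2, the striated-muscle subunit of cytochrome oxidase, at 5.38 and 5.39 at day 14 and 2.19 on parotid replicate 2. Of the other sarcomere and triad genes, 19 of 22 were higher and none lower. Of the developmental genes tested, 1 of 5 was higher (Cdh15) and 1 lower (Ncam1). Against parotid gland these lists gave, in the same order, 5 of 8, 6 of 10, 10 of 22 and 1 of 5 higher, beside the 6.31% of all genes.

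Regulators of muscle identity were partly present. Myf6, a myogenic factor of mature fibres, had levels of -0.53 and -0.49 at day 14 and was below background on every other array, at least 27.9-fold above untreated tumour (limma adjusted p = 0.001). It entered the test through day 14 alone, so that call adds no support. Of 15 regulators tested, 10 were higher and 1 (Prox1) lower at day 14 than in untreated tumour, and 2 higher than in parotid gland. Of 13 genes of the growth and atrophy axis, 7 were higher and 5 lower at day 14 than in untreated tumour. Over all genes 24.8% were higher and 23.1% lower than in untreated tumour, and 6.31% were higher than in parotid gland. Mstn, which encodes the muscle growth inhibitor myostatin, had levels of -2.25 and -2.81 at day 14 and -2.93 on parotid replicate 2, the last not above background.

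The 10 non-member genes whose levels followed the members' mean most closely over the 8 arrays were Trim54, Hrc, Cox6a2, Trdn, Myom2, Pgam2, Rpl3l, Cmya5, Art1 and Mylk2, with Pearson correlations from 0.997 for Trim54 to 0.989 for Mylk2. These describe 8 arrays of which 3 carry the muscle signal, so a gene high on those 3 can rank near the top whatever its role. Trim54, a relative of Trim55 and Trim63, had levels of 4.13 and 4.11 at day 14, 0.81 on parotid replicate 2 and -5.17 to -4.04 on the other 5 arrays.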

How the data were processed

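Total RNA of 8 samples was hybridised to 1-colour Agilent mouse arrays. Per the file headers, the authors' scanner software gave each spot a background-subtracted, spatially detrended intensity with quality calls, and these deposited intensities are not scaled between arrays. The authors also deposited a table of log2 values, used as an alternative only, whose centring is not stated. Positions of probes are on mm8, per the file headers, and the other text columns (gene names, accessions and positions) were used as deposited.

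Here log2 intensity minus the 75th percentile of the array was the value tested. One limma fit (version 3.58.1, R 4.3.3) held all 8 arrays, with 1 mean per group for 5 groups and a variance prior that follows intensity. Spots marked as non-uniform or outliers were left out. A probe was tested if some group had it well above background on all of its arrays (24279 with a usable spot on every array), and the brightest probe stood for each of 16362 genes. The model left 3 residual degrees of freedom. The groups of 1 array were assumed to vary like the others. Adjusted p-values are two-sided Benjamini-Hochberg values over all genes, with a threshold of 0.05. The number of arrays limits the precision. Tables and figures were made with Python 3.11.15 and pandas 2.3.3.

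The members and lists were chosen with earlier results of these data known. The naming rule was all members by role, the 10 non-members nearest in profile, the 10 non-members with the largest parotid difference, and the fixed lists. Genes of those lists given as examples were chosen after their values were seen. The values of 1 listed regulator are not reported here. Day 14 against day 3 and the fit with marked spots kept were added after the data were seen.

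The fit was tested on simulated data with known shifts. Alternatives changed the scaling (quantiles, the deposited log2 values, or normexp with offset 50), the filter (none, or above background on all 8 arrays), the probe summary (mean), the variance prior (no trend), the slide (a fixed block, a random block, or slide 1 by itself), the arrays in the fit (only those compared, or each replicate left out) and the threshold (at least 2-fold).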

Additional observations from a re-analysis of the deposited data

Results flagged for a closer look

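The change from untreated tumour differed between the lengths of rapamycin treatment. Day 14 was higher than day 3 for 27 of the 34 tested members and lower for 2 (Tnni1 and Trim55) by a test of that difference itself (limma, adjusted p under 0.05), with day 3 represented by 1 array. Of the 34, 14 entered the test through day 14 alone and had to differ. Among the other 20, 13 were higher and 2 lower, beside 11.6% and 11.0% of all genes. Ryr1, not above background at day 3, was at least 225-fold higher at day 14 (adjusted p = 0.0009). Mylpf, above background at both times, was higher by 8.51 ± 1.33 on the log2 scale (adjusted p = 0.009). Fbxo32 did not pass (-0.09 ± 0.24, adjusted p = 0.800), nor did Myl1, 1 of 6 fast-fibre genes above background at day 3 (9.96 ± 3.31, adjusted p = 0.077). Time under treatment and the individual tumour cannot be told apart with 1 array at day 3.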

How the results depend on the processing

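No member called in untreated tumour against parotid, day 14 against untreated tumour or day 14 against parotid changed direction under the 11 alternatives computed gene by gene. For untreated tumour against parotid, the 7 calls became 4 with normexp, 19 without a filter, 0 of 6 with the filter on all arrays and 12 on slide 1, and 4 to 28 with an array left out. Its median moved from -3.21 to -0.60 on slide 1 and between -5.45 and -0.60 with a parotid array left out. For day 14 against untreated tumour, the 32 calls became 6 of 6 with the filter on all arrays. The shares of all genes called were 47.8% and 47.9%. The median of 8.64 became 6.09 with normexp, under which the median of all genes was 0.17 (main setting 0.05, deposited values -0.12). For day 14 against parotid, the 15 calls became 26 with normexp, 4 of 6 with the filter on all arrays, 29 on slide 1, 6 with only the arrays compared, and 0 to 30 with an array left out. The median of 5.86 was 8.35 on slide 1 and 3.34 to 8.29 with a parotid array left out. The day 3 median of 0.76 became -1.52 with slide as a fixed block, -0.55 with normexp and -0.06 with quantile normalization. For submandibular gland against parotid, the 1 call became 3 with quantile normalization and 2 without a filter or with slide as a random block. It became 0 with the filter on all arrays, no trend, slide as a fixed block or only the arrays compared. In these settings 0.581% to 4.21% of all genes were called, against 2.37% in the main setting. The median of -2.32 ran from -4.14 to 0.62 with a parotid array left out. The parotid replicate difference of 4.81 became 2.33 with normexp, 3.71 with the deposited values, 3.67 with the filter on all arrays and 4.26 with the mean of probes. The filter on all arrays tests fewer members, and the other causes were not tested. With marked spots kept, Ckmt2 (adjusted p = 0.004) and Actn2 (adjusted p = 0.001) were called higher at day 14 than in untreated tumour, where neither was above background, by at least 267-fold and 22.2-fold. Ckmt2 and Actn2 entered through day 14 alone, so these calls add no support. No paired analysis was possible because the groups compared share fewer than 2 replicate numbers in the labels: 1 parotid and 1 day 14 sample carry no number. Levels of probes below background follow the scaling and the noise of the array and have no order.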
